A study of Aspergillus niger with 27 samples.

Results

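Of the 11846 gene models counted in colonies of the filamentous fungus Aspergillus niger, 21 kept nearly the same level in all 9 compartments of a dish that offered wheat bran, sugar beet pulp and glucose side by side. These stable genes were chosen from the measured values themselves. Counts were divided by a median-of-ratios size factor for each library, the 3 plates were averaged for each compartment, and a gene was kept when the smallest of its 9 compartment means was at least 1000 normalised counts and the largest was at most 1.4 times the smallest. Genes among the 20 largest raw counts of any library were left out. The level alone was met by 1018 genes, of which 59 were among the most abundant, and 21 of the other 959 met the ratio. None of the 59 met the ratio. Flatness across the compartments and the minimum level are therefore the rule by which the genes were picked, and the values that show them are given as a description. Counts of calls between compartments or substrates are printed beside the share of all genes called, and nothing is read from them.

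The colonies grew over dishes with separate compartments of liquid medium under a perforated membrane that hyphae do not cross, so that compartments are linked through the mycelium alone. Compartments 7 to 9 held wheat bran, a milling residue whose cell walls are rich in arabinoxylan. Compartments 4 to 6 held sugar beet pulp, the pectin-rich residue of sugar extraction, and compartments 1 to 3 held glucose, a sugar taken up directly. Plates A, B and C carried 1 colony each, and the mycelium over each compartment gave 1 library, so there were 27 libraries, 9 for each substrate and 3 for each compartment. The 3 substrates were met by the same colony, and the labels name no strain, genotype, age or time of harvest, and do not say which of the 3 compartments of a substrate borders another substrate.

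A gene whose RNA stays level while a cell changes its diet is often called a housekeeping gene, because many of them serve tasks that every cell needs, such as translation, the cytoskeleton or protein turnover. Such genes are used as internal standards in quantitative PCR. In RNA sequencing a level is only defined relative to a scale for each library, and median-of-ratios and TMM scaling both set that scale on the assumption that most genes do not change. Genes carry NRRL3 numbers without names in the count table, and matching these numbers to RefSeq gene records of assembly ASM285v2 gave 0 of 11846. The stable genes are therefore given by ID, with no function and no sequence.

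Wheat bran libraries held between 8006891 and 24501824 counts, sugar beet pulp libraries between 12078576 and 20473260, and glucose libraries between 12822917 and 19406653. Size factors ran more widely than these totals, from 0.251 to 1.75. The 3 libraries of wheat bran compartment 9 stood apart, with a mean size factor of 0.320 ± 0.0692, against 1.64 ± 0.115 in sugar beet pulp compartment 5, the highest, and 0.861 ± 0.242 in glucose compartment 2, the next lowest (SD, n = 3 plates). The raw counts of the stable genes ran from 255 to 44567 for a gene in a library. Counting error alone, the square root of the count, is then 6.26% at the lowest and 0.474% at the highest, which covers sampling of reads and not the spread between colonies.

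Few of the well expressed genes of the colony had compartment means within a ratio of 1.4. Across the 959 genes of sufficient level outside the most abundant, the ratio of the largest to the smallest compartment mean had a median of 2.89 and reached 42.9. A ratio above 4 was found in 316 of them and a ratio of at most 2 in 208, or 21.7%. Spread between plates also widens this ratio, so a gene above the limit need not differ among compartments. Any difference among compartments was called in 682 of the 959, or 71.1%, at an adjusted p under 0.05 by the edgeR quasi-likelihood F-test. Over all genes tested the share was 61.8%. Over the other 8 compartments, without wheat bran compartment 9, the median ratio of the 959 genes was 2.25, with 148 above 4 and 366 at most 2. Only 43 genes stayed within a ratio of 1.5, 21 within 1.4 and 5 within 1.3, and 0 within 1.2. The stable genes are 2.19% of the 959. Their mean normalised counts over the 27 libraries ran from 1194 to 20016, with a median of 2209, and 10 of the 21 lay between 1000 and 2000, where they were 7.09% of the 141 genes. Between 2000 and 4000 there were 5 among 342 genes, between 4000 and 8000 there was 1 among 216, between 8000 and 16000 there were 3 among 161, and between 16000 and 32000 there were 2 among 83. A gene with a mean near 1000 cannot have a large ratio and still meet the level, so the higher share in the lowest band follows in part from the rule. These counts are not corrected for gene length and do not order the genes by abundance of RNA.

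**Figure D1:**
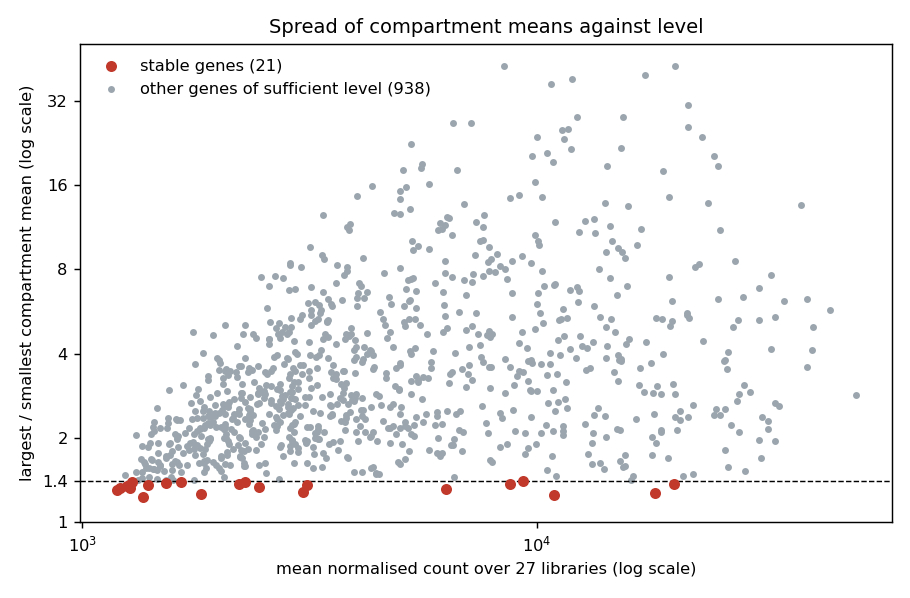
Each point is 1 of 959 genes, with its mean normalised count over 27 libraries on the x axis and the ratio of its largest to its smallest compartment mean on the y axis, both on log scales; the dashed line is the ratio of 1.4 used to choose the genes. The 21 stable genes lie between 1.23 and 1.398, below the median of 2.89.

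The choice had no natural gap at its edge. The stable genes nearest to the limit were NRRL3_11021 with a ratio of 1.398, NRRL3_10991 with 1.396 and NRRL3_2220 with 1.394. The genes just outside were NRRL3_10045 with 1.405, NRRL3_8815 with 1.410 and NRRL3_4927 with 1.410, so that genes lay close together on either side of the limit. At the limit on level, NRRL3_6942 was just inside with a smallest compartment mean of 1003 and NRRL3_4931 just outside with 852. A further 112 genes met the ratio at lower levels, 11 of them with a smallest mean of at least 500.

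NRRL3_5704 had the smallest ratio, 1.23, and 1.22 without wheat bran compartment 9. Its ratio was 1.35 with TMM factors, 1.25 with upper-quartile factors, 3.45 with library size alone and 1.49 with medians of plates. Without plate A it was 1.45, without plate B 1.38 and without plate C 1.35. The gene thus passed the limit of 1.4 in some of these settings and exceeded it in others. On wheat bran, NRRL3_5704 had normalised counts of 1761, 1084 and 798 on plates A, B and C in compartment 7, 1648, 1613 and 975 in compartment 8, and 1056, 1347 and 1200.2 in compartment 9. On sugar beet pulp, NRRL3_5704 had normalised counts of 1689.9, 1494 and 1207 on plates A, B and C in compartment 4, 1536, 1316 and 1148 in compartment 5, and 1845, 1329 and 1241 in compartment 6. On glucose, NRRL3_5704 had normalised counts of 1617, 1465 and 1225 on plates A, B and C in compartment 1, 1604, 1199 and 1277 in compartment 2, and 1310.0, 1423 and 1311 in compartment 3. Its lowest compartment mean was 1201 ± 145 in wheat bran compartment 9 and its highest 1472 ± 326 in sugar beet pulp compartment 6 (SD, n = 3 plates). Libraries of the 3 substrates overlapped, and plate C was below plate A in 7 of the 9 compartments. The lowest library, wheat bran compartment 7 of plate C, and the highest, sugar beet pulp compartment 6 of plate A, differed by 2.31-fold, more than the compartment means did. Each library is bulk mycelium, in which less RNA per hypha and fewer hyphae with the RNA cannot be told apart.

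NRRL3_9240 came next with a ratio of 1.25. On wheat bran, NRRL3_9240 had normalised counts of 9400.0, 9952 and 10947 on plates A, B and C in compartment 7, 9423, 10102 and 17016 in compartment 8, and 11972, 9799 and 11281 in compartment 9. On sugar beet pulp, NRRL3_9240 had normalised counts of 9580.4, 8831 and 10788 on plates A, B and C in compartment 4, 9632, 8806 and 14991 in compartment 5, and 9648, 9008 and 13003 in compartment 6. On glucose, NRRL3_9240 had normalised counts of 13565, 9009.6 and 12513 on plates A, B and C in compartment 1, 10683, 11367 and 9497 in compartment 2, and 9585, 14200.5 and 10054 in compartment 3. Its highest compartment mean was 12180.4 ± 4201 in wheat bran compartment 8 and its lowest 9733 ± 987 in sugar beet pulp compartment 4 (SD, n = 3 plates). Of the 27 libraries, wheat bran compartment 8 of plate C was the highest, and the 3 substrates overlapped.

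The other 3 of the 5 flattest genes were NRRL3_6600 with a ratio of 1.26, NRRL3_10630 with 1.27 and NRRL3_3814 with 1.28. The ratio of NRRL3_3814, whose smallest mean lay in wheat bran compartment 9, was 1.18 without that compartment. NRRL3_10630 had a lowest, median and highest library of 14714, 19376 and 26449 on wheat bran, 12868, 16842 and 25074 on sugar beet pulp and 14111, 16795 and 22196 on glucose (n = 9 libraries each). For NRRL3_3814 the same values were 2195, 2793 and 3649 on wheat bran, 2591, 2824 and 3913 on sugar beet pulp and 2363, 3216 and 3896 on glucose. In both genes the ranges of the 3 substrates overlapped. NRRL3_3814 also had the narrowest range of single libraries among the stable genes, with 1.78-fold between the highest and the lowest of 27.

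The 5 stable genes with the highest mean normalised counts were NRRL3_1927 at 20016 ± 4735, NRRL3_10630 at 18151 ± 3466, NRRL3_9240 at 10913 ± 2085, NRRL3_11021 at 9307 ± 1848 and NRRL3_10992 at 8730.0 ± 1582 (SD over 27 libraries). The first 4 of these had their highest compartment mean in wheat bran compartment 8, as did NRRL3_8101, and wheat bran compartment 8 of plate C was the highest of the 27 libraries in all 5 of them. NRRL3_1927 stood at 24067 ± 7817 in wheat bran compartment 8, against 17632 ± 1507 in sugar beet pulp compartment 4, its lowest. NRRL3_11021 stood at 10757 ± 3148 in wheat bran compartment 8, against 7694 ± 2515 in sugar beet pulp compartment 6. NRRL3_10992 ran the other way, with 7528 ± 769.6 in wheat bran compartment 7, its lowest, against 10323 ± 2094 in sugar beet pulp compartment 5, its highest (SD, n = 3 plates). Without plate C, the ratio of NRRL3_11021 was 1.78, against 1.398 with it.

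The remaining differences among the stable genes had no single shape. The largest compartment mean lay on wheat bran in 8 of the 21 genes, on sugar beet pulp in 4 and on glucose in 9, and the smallest on wheat bran in 11, on sugar beet pulp in 8 and on glucose in 2. By compartment, wheat bran 8 held the largest mean of 5 genes and glucose 3 that of 7, while wheat bran 9 and sugar beet pulp 6 held the smallest mean of 5 genes each. Without wheat bran compartment 9, glucose 3 held the largest mean of 10 genes and wheat bran 8 that of 4, and wheat bran 7, wheat bran 8 and sugar beet pulp 6 held the smallest mean of 5 each. Over all 9 compartments, glucose 3 was above the gene's own mean in 16 of the 21. Counts by substrate, above the own mean or without wheat bran compartment 9 are not given for the 959 genes. For the 21 genes such counts are a description only. Among the 959 genes of the same level, 42.8% had their largest mean in wheat bran compartment 9, 13.6% in wheat bran 8 and 6.57% in glucose 3. Their smallest mean lay in sugar beet pulp compartment 6 in 42.4% and in wheat bran compartment 9 in 23.8%. The stable genes with their largest mean in wheat bran compartment 9 were 2, NRRL3_1966 and NRRL3_10991. NRRL3_1966 stood at 2599 ± 282 in wheat bran compartment 9, against 1904 ± 963 in wheat bran compartment 7, its lowest, and NRRL3_10991 at 1911 ± 251 in wheat bran compartment 9, against 1369 ± 167 in sugar beet pulp compartment 6 (SD, n = 3 plates).

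**Figure D2:**
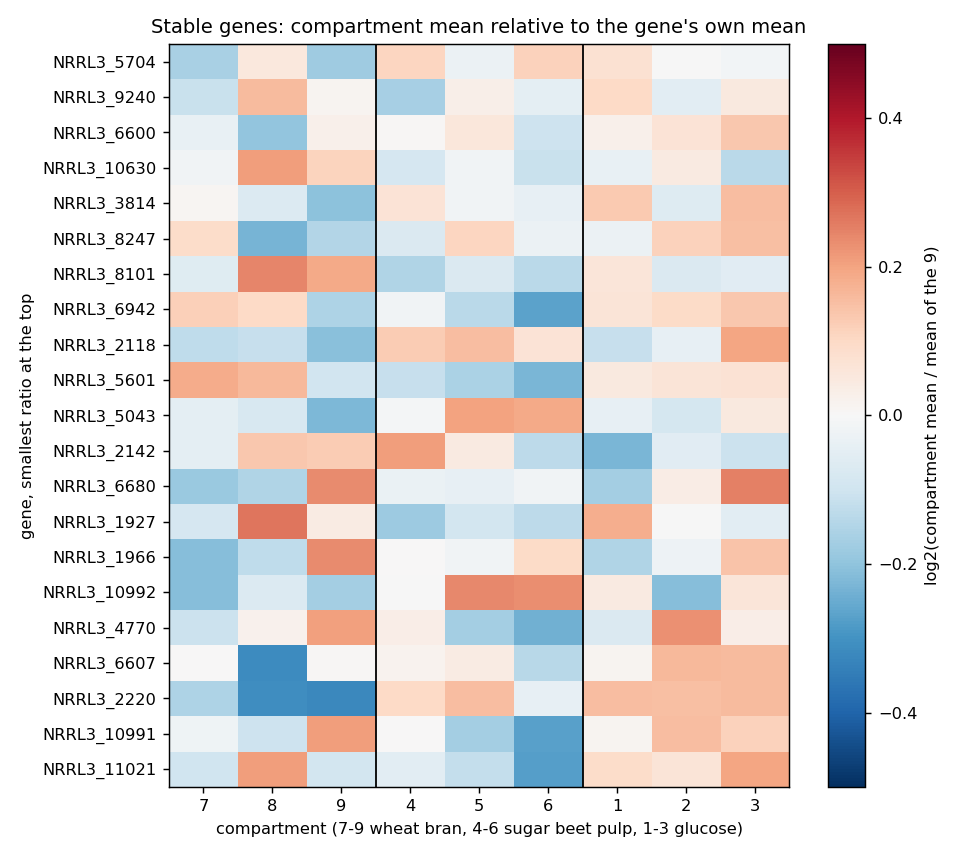
Each row is 1 of the 21 stable genes, ordered by ratio with the smallest at the top, and each column is 1 compartment; colour gives the log2 of the compartment mean over the mean of the gene's 9 compartment means. No column is high or low in all genes; wheat bran 8 is the highest for 5 genes and glucose 3 for 7.

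Across substrates, the stable genes had small fold changes, as the rule required. With the 3 compartments of each substrate added up within a plate, their log2 fold changes ran from -0.41 to 0.23 for wheat bran over sugar beet pulp, from -0.38 to 0.28 for wheat bran over glucose and from -0.22 to 0.35 for sugar beet pulp over glucose. The median size of these changes was, in the same order, 0.16, 0.19 and 0.10 in the 21 genes, against 0.61, 0.51 and 0.31 over all genes tested. NRRL3_10992 had the lowest value of wheat bran over sugar beet pulp, -0.41 (SE 0.20). NRRL3_2220 had the lowest value of wheat bran over glucose, -0.38 (SE 0.20). NRRL3_2142 had the highest value of sugar beet pulp over glucose, 0.35 (SE 0.23). The 3 comparisons share libraries, and all of them were among the values that chose the genes.

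None of the 21 genes was called at an adjusted p under 0.05 in any of these comparisons by the edgeR quasi-likelihood F-test or by DESeq2, and 0 had an unadjusted p under 0.05 in the edgeR test. Over all 11563 genes tested, 42.0% were called for wheat bran over sugar beet pulp, 20.3% higher and 21.7% lower. For wheat bran over glucose the shares were 32.1% in all, 15.8% higher and 16.3% lower, and for sugar beet pulp over glucose 6.49% in all, 2.30% higher and 4.19% lower. In the fit of all 27 libraries, the test for any difference among the 9 compartments, with 8 degrees of freedom, also called 0 of the 21, with 0 at an unadjusted p under 0.05 and 0 by DESeq2, where 61.8% of 10990 genes were called. The rule used the same contrasts, so these counts of 0 follow from the choice. The median SE of a substrate log2 fold change was 0.20 in these genes. With all 27 libraries entered separately, which treats compartments of a colony as replicates, NRRL3_2118 and NRRL3_10992 were called lower on wheat bran than on sugar beet pulp and NRRL3_2220 lower than on glucose, where 60.9% and 50.8% of all genes were called.

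Flatness depended on the scale that was used. As a share of all counts the 21 genes were far from level: together they took 0.344% ± 0.0625 of the counts in wheat bran compartment 9, 0.586% ± 0.0720 in wheat bran compartment 7, 0.917% ± 0.132 in sugar beet pulp compartment 5 and 0.586% ± 0.0679 in glucose compartment 2 (SD, n = 3 plates). With scaling by library size alone, every one of them had a ratio above 2, from 2.12 to 3.79, and 31 other genes met the rule, none of them among the 21. On that scale all 21 had negative log2 fold changes of wheat bran over sugar beet pulp, with a median of -0.81 against -0.68 over all genes, and 21 were called, where 58.2% of all genes were. Their median log2 fold change of wheat bran over glucose was -0.46 on that scale, against -0.29 over all genes, and 5 were called lower (NRRL3_2118, NRRL3_2220, NRRL3_6600, NRRL3_6607 and NRRL3_8247), where 39.6% of all genes were called. For sugar beet pulp over glucose it was 0.35, against 0.43 over all genes, and NRRL3_10992 was called higher, where 18.4% of all genes were called in either direction.

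Scales that are meant to follow the bulk of genes gave lists that overlapped in part. TMM factors gave 22 genes, 14 of them shared, which is 66.7% of the 21 and 63.6% of the 22. Upper-quartile factors gave 17 genes, 12 of them shared, or 57.1% of the 21 and 70.6% of the 17. Under these scales the ratio of the 21 genes stayed at or below 1.52. A size factor computed from the 21 genes alone differed from the factor of all genes by -0.27 to 0.34 on the log2 scale over the libraries. The highest difference was in sugar beet pulp compartment 5 of plate C and the lowest in wheat bran compartment 7 of plate B. In the wheat bran compartment 9 libraries, whose factor from all genes was the lowest, the difference averaged -0.02 ± 0.03 (SD, n = 3 plates). Since the genes were chosen to be level on the scale of all genes, this is a description and no check of either scale.

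Among the settings tried, leaving out wheat bran compartment 9 changed the length of the list most. Without its 3 libraries the rule gave 117 genes, among them 19 of the 21. Size factors were computed anew for this, and the minimum level was asked of the other 8 compartments only. Of the 959 genes of sufficient level in all 9 compartments, 75 had a ratio of at most 1.4 over these 8. The longer list came with new size factors, a level asked of fewer compartments and a ratio over fewer compartments, and their parts were not separated. Over the other 8 compartments the ratio of the 21 genes had a lowest value of 1.18 and a median of 1.33, against a median of 1.34 over all 9. The test for any difference among compartments without compartment 9 called 36.5% of the genes tested, against 61.8% with it, and 0 of the 21. For substrates without it, 0 of the 21 were called either.

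Single libraries varied more than the compartment means. In all 21 genes the pooled coefficient of variation (CV, the SD divided by the mean) within compartments was larger than the CV of the 9 compartment means. The first ran from 14.7% to 41.0% with a median of 20.9%, and the second from 6.74% to 13.5% with a median of 10.1%. Among the 959 genes of the same level the medians were 31.9% and 34.2%. A mean of 3 plates varies less than a single library, and the rule limited the means. The order of the 2 measures in the 21 genes therefore follows in large part from how they are made. A rule on means of 3 plates also favours genes whose plates vary little, so the lower spread within compartments is not independent of the choice. Over the 27 libraries, the highest was 1.78 to 3.78 times the lowest, with a median of 2.16, against a median of 5.33 in the 959 genes, and 7 of the 21 stayed within 2-fold, where 13 of the 959 did. Raw counts of the 21 genes spanned 5.45-fold to 19.4-fold over the same libraries, with a median of 8.86-fold.

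To measure flatness in libraries that the choice did not use, the rule was applied to 2 plates and the chosen genes were measured on the plate left out, scaled by its own 9 libraries. Without plate A the rule chose 14 genes, without plate B 15 and without plate C 14. On the plate left out, the highest of the 9 compartments was 1.63 times the lowest in the median of the chosen genes for plate A, 1.83 times for plate B and 1.75 times for plate C. Over all genes of sufficient level on the 2 plates used, the same medians were 3.94, 3.27 and 3.51. Of the chosen genes, 10 of 14 stayed within 2-fold on plate A, 12 of 15 on plate B and 9 of 14 on plate C, where 7.33%, 12.3% and 11.6% of all genes of sufficient level did. Within 1.4-fold there were 0 of 14 on plate A, 0 of 15 on plate B and 1 of 14 on plate C, but a single library per compartment is noisier than a mean of plates. The widest was 4.02-fold on plate A, above the median of all genes there.

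Which genes were chosen changed with the plates. The 3 choices named 32 genes in all, 2 of them in every choice and 7 in 2 of the 3. Both genes chosen each time, NRRL3_6600 and NRRL3_9240, were among the 21, as were the 7. Of the other stable genes, 9 were chosen once, and NRRL3_1927, NRRL3_2142 and NRRL3_2220 were chosen on no pair of plates. NRRL3_6600 had 1.47-fold between its highest and lowest compartment on plate A, 1.61-fold on plate B and 1.33-fold on plate C, each time with the other plates used for the choice. For NRRL3_9240 the same values were 1.45-fold, 1.63-fold and 1.73-fold. Each pair of choices shares a plate, so the 3 are not independent.

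**Figure D3:**
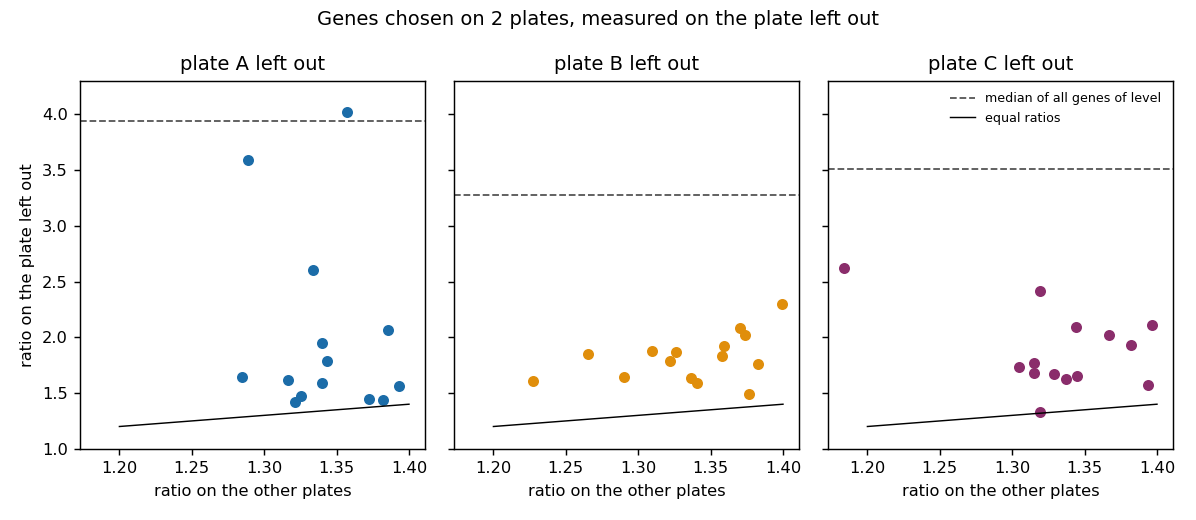
For each plate left out, points are the genes that met the rule on the other plates, with their ratio of largest to smallest compartment mean there on the x axis and the ratio of highest to lowest library on the plate left out on the y axis. All points lie above the line of equal ratios, and all but 1 gene on plate A, at 4.02, lie below the dashed median of all genes of sufficient level, which is 3.94 for plate A, 3.27 for plate B and 3.51 for plate C.

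Colonies differed in the level of some stable genes. A difference between plates enters all 9 compartment means alike, so the rule did not use its size or direction, and it was tested over all genes in the fit of 27 libraries. The test divides by the residual spread over libraries, which was not compared between these genes and others. The CV within compartments, which also holds the differences between plates, was lower in these genes and is not independent of the rule. Their share of calls may thus be favoured by the choice and is given as a description. Each plate is 1 colony with 9 libraries, so the test compares these 3 colonies and no condition. Between plates C and A, 5 of the 21 genes were called at an adjusted p under 0.05 by the edgeR quasi-likelihood F-test, 2 higher and 3 lower on plate C, where 7.22% of 10990 genes were called, 2.86% higher and 4.36% lower. At an unadjusted p under 0.05 there were 12 of the 21, against 23.1% of all genes. The median size of the log2 fold change was 0.36 in the 21 genes, against 0.27 over all genes tested and 0.28 in the 959. The count moved with the settings, as did the share of all genes called. DESeq2 called 9, where 13.6% of all genes were called, and edgeR with median-of-ratios factors 3, where 7.09% were. Without plate B edgeR called 1, NRRL3_2142, where 7.01% of all genes were called, and with scaling by library size alone the same gene, where 3.53% were.

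NRRL3_2142 differed most between plates C and A. On wheat bran, NRRL3_2142 had normalised counts of 3493, 3772 and 1752 on plates A, B and C in compartment 7, 3146, 4245 and 2864 in compartment 8, and 4619, 3663 and 1922 in compartment 9. On sugar beet pulp, NRRL3_2142 had normalised counts of 5441, 3306 and 2041 on plates A, B and C in compartment 4, 4594, 2735 and 2295 in compartment 5, and 2939, 3093 and 2494 in compartment 6. On glucose, NRRL3_2142 had normalised counts of 4882, 1441 and 1643 on plates A, B and C in compartment 1, 4159, 2670.2 and 2151 in compartment 2, and 4006, 3179 and 1471 in compartment 3. Its lowest, median and highest library were 1471, 2041 and 2864 on plate C, against 2939, 4159 and 5441 on plate A, and the libraries of these plates did not overlap. On plate B they were 1441, 3179 and 4245. The log2 fold change of plate C over plate A was -1.03 (SE 0.18), with an adjusted p of 0.0016 by the edgeR quasi-likelihood F-test. It was lower on plate C than on plate A in all 9 compartments. In this gene a compartment mean such as 2655 ± 1931 in glucose compartment 1 (SD, n = 3 plates) averaged over colonies far apart, and its ratio of 1.35 describes that mean and not each colony: within a plate, its highest compartment was 1.85 times its lowest on plate A, 2.95 times on plate B and 1.95 times on plate C.

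NRRL3_1966 and NRRL3_5704 were the other genes called lower on plate C. NRRL3_1966 had a lowest, median and highest library of 1070.0, 1636 and 2867 on plate C, against 1808, 2467 and 3272 on plate A, with a log2 fold change of -0.60 (SE 0.17) and an adjusted p of 0.0358 by the edgeR quasi-likelihood F-test. NRRL3_5704, with the smallest ratio under the rule as set, had 798, 1207 and 1311 on plate C, against 1056, 1617 and 1845 on plate A. Its log2 fold change was -0.45 (SE 0.14), with an adjusted p of 0.0483 by the same edgeR test. The plates overlapped in both genes. The call of NRRL3_1966 was lost with scaling by library size alone, at a log2 fold change of -0.68, and without plate B, at -0.59. That of NRRL3_5704 was lost with scaling by library size alone, at -0.50, without plate B, at -0.45, with median-of-ratios factors, at -0.44, and without the filter on low counts, at -0.46. NRRL3_5704 is named here outside the rule for this comparison, which took 2 genes in each direction.

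NRRL3_10630 and NRRL3_6600 were called higher on plate C. NRRL3_10630 had a lowest, median and highest library of 15099.6, 20421 and 26449 on plate C, against 12868, 14714 and 18322 on plate A, with a log2 fold change of 0.47 (SE 0.14) and an adjusted p of 0.0486 by the edgeR quasi-likelihood F-test. NRRL3_6600 had 1895, 2205 and 2454 on plate C, against 1313, 1637 and 1906 on plate A, so that the plates met only at their ends, with a log2 fold change of 0.43 (SE 0.12) and an adjusted p of 0.0358 by the same edgeR test. It was higher on plate C than on plate A in all 9 compartments. On plate B it had 1277, 1626 and 2010.5, close to plate A. The call of NRRL3_10630 in edgeR was lost with median-of-ratios factors, with scaling by library size alone, without the filter on low counts, without compartment 9 and without plate B, with log2 fold changes of 0.40 to 0.49, and that of NRRL3_6600 with scaling by library size alone, at 0.36, and without plate B, at 0.44. Without compartment 9, NRRL3_6607 was called in place of NRRL3_10630.

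The test for any difference among the 3 plates, with 2 degrees of freedom, called 2 of the 21, NRRL3_2142 with an adjusted p of 0.0054 and NRRL3_6600 with 0.0496 by the edgeR quasi-likelihood F-test, where 4.67% of 10990 genes were called. Between plates B and A, 0 of the 21 were called by edgeR, with 2 at an unadjusted p under 0.05 and 0 by DESeq2. Over all genes edgeR called 1.44%, 0.628% higher and 0.810% lower. Between plates C and B, 0 were called by edgeR, with 4 at an unadjusted p under 0.05, and edgeR called 0.0455% of all genes. DESeq2 called 1 of the 21, NRRL3_6600, where it called 0.386% of all genes. The 3 pairs share plates.

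**Figure D4:**
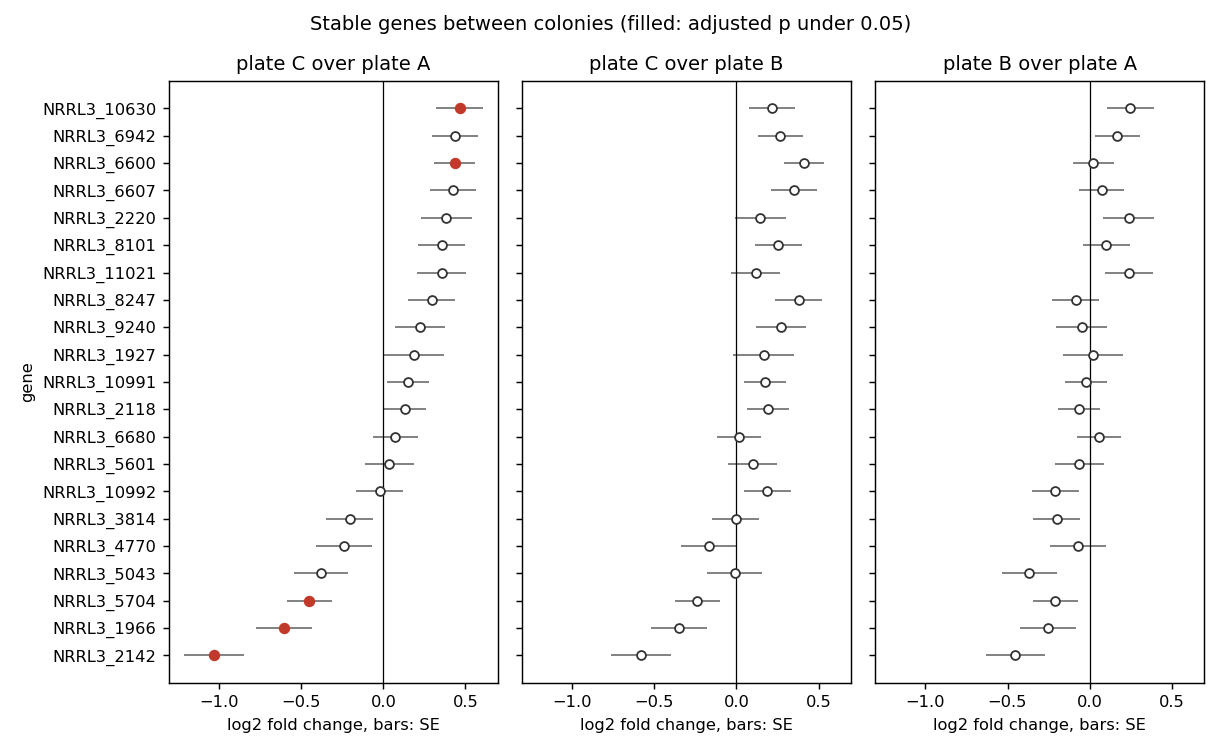
Points are the log2 fold changes of the 21 stable genes between plates in the fit of 27 libraries, with bars for the SE; filled points had an adjusted p under 0.05 by the edgeR quasi-likelihood F-test. Between plates C and A, 5 genes are filled, from -1.03 for NRRL3_2142 to 0.47 for NRRL3_10630, and none is filled in the other pairs.

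Fits of a single substrate gave calls between plates C and A on sugar beet pulp alone. With the 9 libraries of a substrate alone, 0 of the 21 genes were called on wheat bran, where 0.393% of all genes were, 13 were called on sugar beet pulp, where 37.0% of all genes were, and 0 on glucose, where 0 of all genes were. Of the 13, 7 were higher and 6 lower on plate C. The calls in separate fits do not show that the sections differ, and that difference was not tested. NRRL3_2142 had a log2 fold change of -0.79 on wheat bran, -0.93 on sugar beet pulp and -1.35 on glucose. For NRRL3_6600 the values were 0.39 on wheat bran, 0.48 on sugar beet pulp and 0.44 on glucose, and for NRRL3_1966 they were -0.57 on wheat bran, -0.91 on sugar beet pulp and -0.33 on glucose. Over the 21 genes, 8 were higher on plate C than on plate A in all 3 sections, 5 were lower in all 3 and 8 were mixed. The sections belong to the same colonies, and the same count over all genes is not given here, so nothing is read from it.

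**Figure D5:**
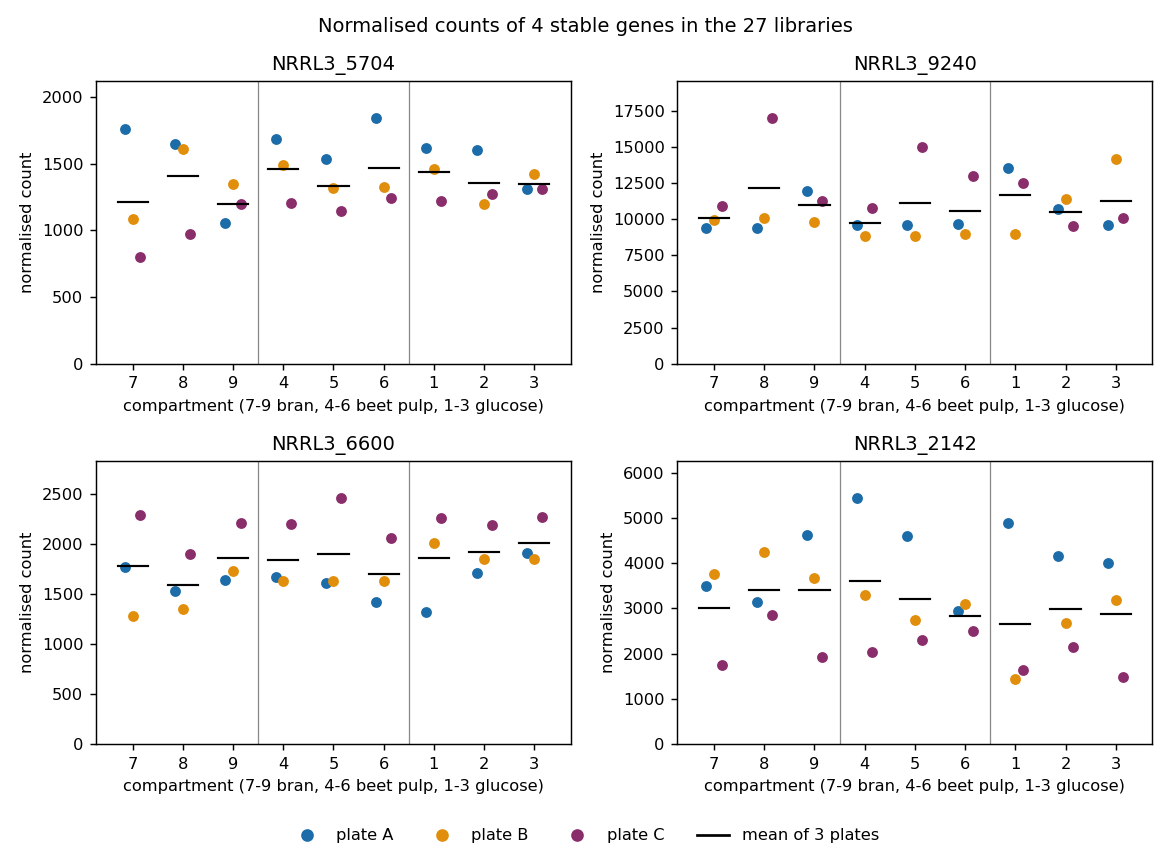
Normalised counts of 4 stable genes by compartment, with wheat bran (7 to 9) at the left, sugar beet pulp (4 to 6) in the middle and glucose (1 to 3) at the right; each point is 1 library, coloured by plate, and lines are means of the 3 plates. In NRRL3_6600 plate C lies above plate A in all 9 compartments and in NRRL3_2142 below it, while the means stay within ratios of 1.26 and 1.35.

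ID numbers of the stable genes ran from NRRL3_1927 to NRRL3_11021, with gaps of 1 to 1594 numbers and a median of 207 between neighbours on the list. Their spacing was not compared with that of other genes. Only NRRL3_10991 and NRRL3_10992 had consecutive numbers, and the files do not say whether consecutive numbers mean neighbouring genes, whose reads could overlap. Their profiles were not alike. NRRL3_10991 stood at 1629 ± 279 in wheat bran compartment 7 and 1469 ± 231 in sugar beet pulp compartment 5, while NRRL3_10992 stood at 7528 ± 769.6 in wheat bran compartment 7 and 10323 ± 2094 in sugar beet pulp compartment 5 (SD, n = 3 plates). NRRL3_6600 and NRRL3_6607 were the next closest pair, with a gap of 7; both had their smallest mean in wheat bran compartment 8, at 1590.3 ± 278 and 1834 ± 367, and were higher on plate C than on plate A, by log2 fold changes of 0.43 and 0.42, of which the second was not called, with an adjusted p of 0.0630 by the edgeR quasi-likelihood F-test.

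The other stable genes kept within similar bounds. NRRL3_5601 stood at 2788 ± 428 in wheat bran compartment 7, its highest, against 2095 ± 35.3 in sugar beet pulp compartment 6, its lowest. NRRL3_5043 stood at 1074 ± 157 in wheat bran compartment 9, its lowest, against 1443 ± 281 in sugar beet pulp compartment 5, its highest. NRRL3_2118 stood at 1103 ± 185 in wheat bran compartment 9, its lowest, against 1463 ± 24.3 in glucose compartment 3, its highest, and had the smallest pooled CV within compartments of the 21, 14.7%. NRRL3_6680, NRRL3_6942 and NRRL3_8247 also had their largest mean in glucose compartment 3. NRRL3_6680 stood at 1226 ± 180.1 in wheat bran compartment 7, its lowest, against 1663 ± 358 in glucose compartment 3. NRRL3_6942 stood at 1003 ± 258 in sugar beet pulp compartment 6, its lowest, against 1327 ± 345 in glucose compartment 3. NRRL3_8247 stood at 1017 ± 209 in wheat bran compartment 8, its lowest, against 1323 ± 203 in glucose compartment 3. NRRL3_4770 stood at 1293 ± 378 in sugar beet pulp compartment 6, its lowest, against 1790.2 ± 194 in glucose compartment 2, its highest, and NRRL3_8101 at 7483 ± 2364 in wheat bran compartment 8, against 5693 ± 984 in sugar beet pulp compartment 4 (SD, n = 3 plates throughout).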

How the data were processed

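RNA from mycelium of 27 pieces of 3 colonies was measured by sequencing on an Ion Proton instrument after full-length cDNA synthesis, per the labels' protocols. The authors deposited raw counts of reads for each of 11846 gene models. The submitters' processing notes name HTSeq and DESeq2 with no version. Aligner, genome build, annotation and strand setting: not given in the sources used here. Genes that overlap, or that have a near-identical copy, are therefore uncertain. All columns matched a library, and 0 lines lacked a gene.

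Normalised counts are counts divided by median-of-ratios size factors over the 10543 genes with a count in every library. Tests used edgeR 4.0.16 in R 4.3.3 (quasi-likelihood F-test, TMM factors, filterByExpr, two-sided, Benjamini-Hochberg adjustment over all genes tested, threshold 0.05), with plate and compartment as terms for 27 libraries, or plate and substrate for 9 sums. An SE is the log2 fold change over the square root of F. The plate is a block because its libraries come from the same colony. Within a plate, deviations from compartment means had an average correlation of 0.126 (108 pairs). For pairs from another plate and another compartment it was -0.0624 (216 pairs). Deviations of a compartment cancel over its plates, so the second value follows largely from the first and is no separate comparison. Libraries of a compartment differed beyond sampling noise, with chi-square at least 29.2 per degree of freedom. DESeq2 1.42.0 was an alternative.

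The stable genes and the alternatives were chosen with earlier results of these data known. Genes were named by rule: the 5 smallest ratios, the 5 highest means, the 3 on either side of the ratio limit, at most 2 called in each direction between plates, and the smallest and largest p among compartments, with p-values left out where the rule used the contrast. Other genes of the list were added after their values were seen. Gene lists by function could not be joined to the IDs.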

Additional observations from a re-analysis of the deposited data

Results flagged for a closer look

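The library of wheat bran compartment 8 on plate C stood away from the other 8 wheat bran libraries in 4 stable genes. NRRL3_1927 had 33083 normalised counts there, against 17197 to 23754 in the others. NRRL3_9240 had 17016, against 9400.0 to 11972. NRRL3_8101 had 10195, against 4843 to 7492. NRRL3_11021 had 14022, against 6955 to 10508. The size factor of that library from all genes was 0.961 and that from the 21 stable genes 1.00. On sugar beet pulp, NRRL3_5601 had 2568 normalised counts in compartment 4 of plate C, against 2068 to 2237 in the other 8 libraries. In all, 75 groups of 9 values were examined and 5 stood out by the gap to the nearest library, where chance alone would pick out about 1 in 20 groups.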

How the results depend on the processing

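The number of genes that met the rule was 21, against 22 with TMM factors, 17 with upper-quartile factors, 31 with library size alone, 32 at a minimum of 500, 9 at a minimum of 2000, 5 at a ratio of 1.3, 43 at a ratio of 1.5, 10 with medians of plates, 21 with the most abundant genes kept, 117 without wheat bran compartment 9, and 14 to 15 when 1 plate was left out. With medians of plates 5 of the 10 were among the 21. Without plate A the ratios of the 21 ran from 1.28 to 2.29.

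Among compartments, 0 of the 21 were called in the fit with plate as the block, 20 with library size alone and 0 under the other settings, including 0 to 0 on leaving out a plate and 0 with no replicate block. For wheat bran over sugar beet pulp the count of 0 became 21 with library size alone and 2 with the 27 libraries entered separately, for wheat bran over glucose 5 and 1, and for sugar beet pulp over glucose 1 with library size alone. Leaving out the block or any plate kept these at 0. With plate as the block and TMM factors, 61.8% of all genes tested were called among compartments. The share with library size alone is not printed here, and 61.8% cannot stand in for it beside the count of 20. The shares of all genes beside the substrate counts are given above, and nothing is read from these counts. The plate numbers come from the labels. Leaving out the block was tried only for compartments and substrates, where the counts of 0 followed from the choice, so it is no check of the block.

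Among the 3 plates, 2 were called, against 1 with library size alone, 1 with no filter on low counts, 7 with DESeq2, and 0 with glucose, 12 with sugar beet pulp and 0 with wheat bran libraries alone. Plate B over A gave 0, and 2 with sugar beet pulp libraries alone. Plate C over A gave 5, against 3 with median-of-ratios factors, 1 with library size alone, 3 with no filter, 9 with DESeq2, 1 without plate B, and 0 with glucose, 13 with sugar beet pulp and 0 with wheat bran libraries alone. Plate C over B gave 0, and 1 with DESeq2. In the fit of 27 libraries, 4.67% of all genes tested were called among the 3 plates. The share was 1.44% for plate B over A, 7.22% for plate C over A and 0.0455% for plate C over B. For plate C over A, the share of all genes called moved with the settings too, as described above. Shares are not printed here for the other settings among the 3 plates or for plate B over A on sugar beet pulp alone. The same holds for plate C over A with no filter. The shares of the main fit cannot stand in for them, and nothing about the stable genes is read from these counts. The cause of each change was not tested, except that a fit of a single section holds fewer libraries. For named genes, 124 of 176 values kept their call or moved by less than the spread between plates, 17 lost their call, 4 gained one, 31 moved, and no called value turned its sign. A ratio among the 124 can still exceed the limit of 1.4, as that of NRRL3_2220 did at 1.52 with TMM factors. The tally therefore does not measure how firmly genes stay on the list. It also holds tests among compartments, where the lack of a call followed from the rule.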
